A study of Mus musculus with 2 samples.

Results

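Genes of the mitochondrial respiratory chain and of the ATP synthase were compared between 1 pool of mouse spleens injected with SiO2 (silica), called SiO2-remodelled in the labels, and 1 pool injected with phosphate-buffered saline (PBS). They were chosen by symbol, as nuclear genes beginning with Nduf, Uqcr, Cox4 to Cox8 or Atp5 and the genes Sdha to Sdhd. The rule found 93 genes among 20649 named on the array, and 91 of them cleared background on 1 or both arrays, out of 16774 genes that did so in all. Each pool was measured on 1 one-colour Agilent array and held 5 spleens of female mice collected on day 19, counted from the first injection. The labels give neither strain nor age, and the RNA of both pools came from a blood RNA kit, which lyses red and white cells apart, with globin message then removed. B and T cell markers were well above background in both pools, 10 of 10 for each cell type, as in spleen.

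The respiratory chain sits in the inner mitochondrial membrane. Complexes I (NADH dehydrogenase) and II (succinate dehydrogenase) pass electrons to coenzyme Q, complex III hands them to cytochrome c, and complex IV (cytochrome c oxidase) gives them to oxygen. Complexes I, III and IV pump protons, and the ATP synthase lets them flow back to make ATP. Most subunits are nuclear-encoded and made in every cell with mitochondria, while a few complex IV subunits have isoforms restricted to muscle, lung or testis. In spleen, lymphocytes, macrophages and erythroid precursors all carry the chain, and maturing red cells discard it with their mitochondria.

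The transcripts of the chain differed little between the pools. By the brightest probe of each gene, Cox6b2 alone was higher by 1.5-fold or more in the SiO2 pool, and Ndufaf8 alone was lower by that much. Among all 16774 genes, 16.0% were at least 1.5-fold higher and 12.3% at least 1.5-fold lower. At 2-fold, Cox6b2 remained on the higher side and no member lay on the lower side, against 6.62% and 3.69% of all genes. Of the 91 members, 67 lay above 0 and 24 below, while 52.3% of all genes lay above 0. That split depended on the processing. Under quantile normalization 53 lay above and 38 below (46.5% of all genes above). Under normexp, another background correction, the split was 65 and 26 (64.1%). It was 39 and 29 in the authors' values for 68 members (46.8%), and 89 and 2 under a scaling to lymphocyte markers (78.8%). The values are log2 differences, SiO2 minus PBS, of a probe's signal after division by the array's 75th percentile, so a value of 0 means an equal place in both arrays. Signals relative to that percentile are called relative signals below.

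The median difference was 0.14 for the members and 0.030 for all genes. The members were packed more closely: their interquartile range was 0.30, against 0.71 for all genes. A difference of at most 0.5 in either direction held for 85 members (93.4%), against 65.0% of all genes. Most members were bright, and 77 lay above the 75th percentile on both arrays. For these 77, the interquartile range was 0.27 and the median 0.12. All 6012 genes above that percentile on both arrays had an interquartile range of 0.60 and a median of -0.023. The place of the members relative to all genes turned under normexp, where the members had a median of 0.093 and all genes 0.18. Among the genes above the 75th percentile on both arrays it did not turn. There, under normexp, the 77 members had a median of 0.080 and the other genes one of -0.053. When the arrays were scaled to lymphocyte markers (20 genes of B and T cells, centred on 0), 35 members passed 1.5-fold upward and 0 downward, against 37.2% and 4.01% of all genes, and the median of all genes became 0.41. The offset of the whole group from 0 was thus smaller than the shift between scalings.

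**Figure D1:**
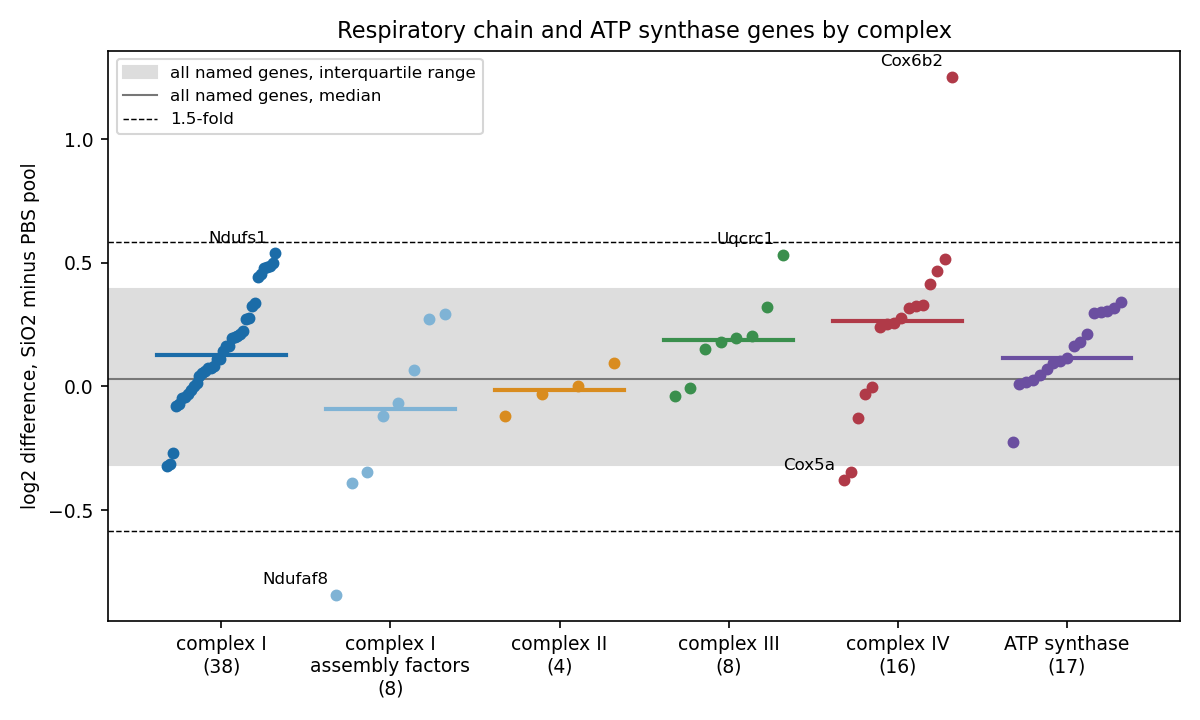
Log2 difference (SiO2 minus PBS pool) of each of the 91 genes, by complex, with 1 point per gene and a bar at each median; the number of genes stands under each name. The grey band is the interquartile range of all 16774 genes and the dashed lines mark 1.5-fold. Only Cox6b2 (1.25) and Ndufaf8 (-0.84) lie outside the dashed lines.

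There was 1 array per group, so no test could be made, and array and group cannot be told apart. The error available is technical. The extraction software's own spot error gave a difference an error of 0.20 on the log2 scale for the typical member, and up to 0.44 for the dim Cox8b. Probes spotted at least 5 times (312 probes) had a standard deviation of the difference of 0.065 at the median and 0.26 at the 95th percentile. Of the members, 36 differed by more than that last value. Within the nearby distance of 0.25 lay 53 of the 91 members (58.2%), against 36.7% of all genes. These technical errors cover spots, not animals or hybridisations. Fewer cells of a type and less RNA per cell cannot be told apart in such pools.

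Promoter sequences, which the choice of members by symbol did not use, were searched for 4 motifs. The motifs were fixed beforehand for this gene set, so a higher share among the members is not an independent finding. Most member windows lacked any single motif. RefSeq promoter windows (assembly GRCm38.p6, 250 bases before to 50 after the start of a gene) were at hand for 76 of the 93 genes, as 81 windows. NRF1, a nuclear regulator of respiratory genes, binds a palindromic GC-rich site. Its letters GCGCANGCG stood on either strand in 23 windows (28.4%), against 6.25% of all 32851 windows and 10.4% of the windows of genes above background. The ETS letters CCGGAAG, bound by GABPA (also called NRF2), stood in 23.5%, against 8.86% of all windows and 13.9% of those of genes above background. The YY1 letters AAGATGGCG stood in 9.88%, against 1.40% and 2.29%. The letters AAGGTCA, bound by the receptor ESRRA, stood in 9.88%, against 4.72% and 3.73%. The 4 motifs were searched on both strands, and 2 matches on opposite strands of a palindromic NRF1 site overlap. At least 1 motif stood in 42 windows (51.9%), against 19.1% of all windows and 26.6% of those of genes above background.

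**Figure D2:**
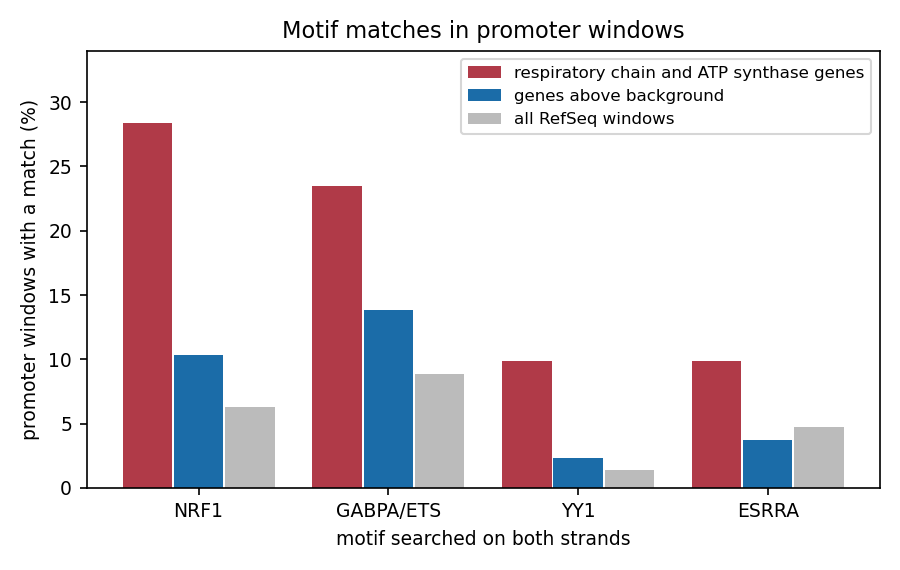
Share of promoter windows (%) that hold each motif on either strand, for the members (81 windows), for genes above background (16651 windows) and for all RefSeq windows (32851). The members have the highest share for each of the 4 motifs, 28.4% for NRF1 against 6.25% of all windows.

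The windows below belong to the highest and the lowest member, to the isoform partner of Cox6b2 and to 2 genes with several matches. They read 5′ to 3′ on the gene's strand, with motif matches in capitals.
Cox6b2 (chr7:4753045-4753344, - strand): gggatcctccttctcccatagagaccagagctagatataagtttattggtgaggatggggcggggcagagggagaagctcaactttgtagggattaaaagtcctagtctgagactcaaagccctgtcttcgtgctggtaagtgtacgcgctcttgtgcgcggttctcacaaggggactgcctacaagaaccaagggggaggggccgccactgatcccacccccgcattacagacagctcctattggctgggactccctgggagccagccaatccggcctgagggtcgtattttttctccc
Ndufaf8 (chr11:120098684-120098983, + strand): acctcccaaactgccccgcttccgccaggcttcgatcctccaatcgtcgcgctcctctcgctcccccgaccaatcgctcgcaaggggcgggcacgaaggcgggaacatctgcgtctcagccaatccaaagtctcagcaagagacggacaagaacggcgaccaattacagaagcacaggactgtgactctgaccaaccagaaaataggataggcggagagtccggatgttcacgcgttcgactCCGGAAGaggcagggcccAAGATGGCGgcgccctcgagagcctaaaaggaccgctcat
Cox6b1 (chr7:30626065-30626364, - strand): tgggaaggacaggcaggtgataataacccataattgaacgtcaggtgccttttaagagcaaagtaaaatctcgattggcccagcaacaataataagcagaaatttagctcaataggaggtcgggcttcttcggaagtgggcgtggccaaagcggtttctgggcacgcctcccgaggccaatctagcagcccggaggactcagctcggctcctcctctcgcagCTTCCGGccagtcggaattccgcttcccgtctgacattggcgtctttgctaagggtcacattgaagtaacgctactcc
Uqcrc1 (chr9:108936398-108936697, + strand): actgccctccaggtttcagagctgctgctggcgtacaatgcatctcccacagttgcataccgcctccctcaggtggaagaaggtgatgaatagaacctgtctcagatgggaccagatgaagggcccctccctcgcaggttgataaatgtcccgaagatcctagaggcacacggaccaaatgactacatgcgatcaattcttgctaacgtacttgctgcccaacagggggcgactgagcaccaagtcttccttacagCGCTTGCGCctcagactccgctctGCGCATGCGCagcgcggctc
Sdhd (chr9:50603800-50604099, - strand): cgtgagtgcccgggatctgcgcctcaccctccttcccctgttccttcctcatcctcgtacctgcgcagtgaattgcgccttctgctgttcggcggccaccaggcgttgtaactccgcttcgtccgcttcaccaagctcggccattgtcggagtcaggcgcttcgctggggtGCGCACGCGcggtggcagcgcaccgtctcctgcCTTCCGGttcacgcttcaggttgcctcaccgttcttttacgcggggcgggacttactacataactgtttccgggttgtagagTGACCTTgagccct
The Cox6b2 window, that of the member with the highest difference, held none of the 4 sets of letters. The window of Ndufaf8, at the other end, held an ETS match 8 bases before the start and a YY1 match from base 11 after it. Cox6b1, the ubiquitous partner of Cox6b2, had an ETS match 28 bases before the start. Uqcrc1 had NRF1 letters from bases 7 and 31 after the start, the site at 31 being the palindrome. Sdhd held NRF1, ETS and ESRRA letters, from 79 and 46 bases before and from base 37 after its start. Members with an NRF1 match (22 genes) had a median difference of 0.093 and those with a window but no match (53 genes) one of 0.16. For the ETS letters these medians were 0.071 with and 0.16 without a match, for YY1 0.045 and 0.16, and for ESRRA 0.082 and 0.16. The median was thus lower with a match for each of the 4 motifs, in gene sets that overlap, and no difference was tested.

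Complex I, the largest complex, was represented by 38 genes with the name of a subunit. They include Ndufa4 and its paralog Ndufa4l2, which are described apart below. By its brightest probe none was 1.5-fold higher or lower, against 16.0% and 12.3% of all genes. Of the 38 genes, 29 lay above 0 and 9 below (52.3% of all genes above), with a median of 0.13 and a range of -0.32 to 0.54. Under quantile normalization 22 lay above 0 and 16 below (46.5% of all genes above). The nuclear core subunits, which hold the flavin and the iron-sulfur clusters or line the quinone site, had a median of 0.21 over 7 genes. Ndufs1, the large iron-sulfur subunit, had a relative signal of 7.04 in the SiO2 pool and 4.85 in the PBS pool, or 1.45-fold higher. Ndufv1, which binds NADH and flavin, had 13.5 in the SiO2 pool and 9.63 in the PBS pool (0.48 on the log2 scale). Nearer to 0, the quinone-site subunit Ndufs7 differed by 0.21 and the iron-sulfur subunit Ndufv2 by 0.055. The peripheral arm subunit Ndufs3, at -0.042, and the iron-sulfur subunit Ndufs8, at -0.079, lay just below 0.

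Supernumerary subunits, which surround the core, gave the same narrow picture. The 13 Ndufa genes, with Ndufab1 and without Ndufa4 and its paralog, had a median of 0.20 and the 10 Ndufb genes one of 0.16. Ndufa10, a subunit with a kinase-like fold, had a relative signal of 1.20 in the SiO2 pool and 0.859 in the PBS pool (0.49). Ndufb9 had 20.7 in the SiO2 pool and 14.8 in the PBS pool (0.48). Ndufab1, the mitochondrial acyl carrier protein, had 1.07 in the SiO2 pool and 0.781 in the PBS pool (0.45). Ndufb7 at 0.44 and Ndufb10 at 0.34, both of the membrane arm, were also among the higher genes. At the other end, Ndufb5, a membrane arm subunit, had 8.64 in the SiO2 pool and 10.8 in the PBS pool (-0.32), and its other probe gave -0.22. Ndufa8, which faces the intermembrane space, had 6.66 in the SiO2 pool and 8.03 in the PBS pool (-0.27). Between these ends lay Ndufc1 at -0.016, Ndufc2 at 0.00083, Ndufa9 at 0.043 and Ndufa13 at 0.061. Ndufs4 and Ndufs6, accessory subunits near the NADH-oxidising end, differed by -0.031 and 0.076. A further 16 complex I subunits lay between the values of Ndufb6 (-0.072) and Ndufa3 (0.28).

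Ndufa4 carries a complex I name but is now placed in complex IV. It had a relative signal of 20.4 in the SiO2 pool and 16.3 in the PBS pool (0.32), near the complex IV median of 0.27. Its paralog Ndufa4l2, known as a hypoxia-induced gene and strong in mural cells of vessels, had 0.207 in the SiO2 pool and 0.257 in the PBS pool (-0.31). Under normexp it lay at -0.095 and under the lymphocyte scaling at 0.068. Mural cell markers had a median of -0.12, and 3 of 9 were lower by 1.5-fold or more, against 12.3% of all genes. The median of these markers was, however, 0.087 under normexp and 0.090 in the authors' values (5 genes). Their summed relative signal was 6.94 in the SiO2 pool and 8.54 in the PBS pool, and their part in the Ndufa4l2 value was not tested.

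The 8 complex I assembly factors, which build the complex and are absent from the finished enzyme, had a median of -0.091. Of these, 3 lay above 0 and 5 below, against 52.3% of all genes above 0. Ndufaf8, a small factor that works with Ndufaf5, had a relative signal of 2.02 in the SiO2 pool and 3.62 in the PBS pool, or 1.79-fold lower. It is read from 1 probe. Its log2 difference was -0.84, between -0.94 under normexp and -0.46 under the scaling to B and T cell markers, where it was no longer 1.5-fold lower. Ndufaf4, at 1.25 in the SiO2 pool and 1.63 in the PBS pool, differed by -0.39 and its other probe by -0.099. Ndufaf6, at 0.868 in the SiO2 pool and 1.1 in the PBS pool, differed by -0.34. Ndufaf3, the partner of Ndufaf4, differed by -0.065 and Ndufaf1, which assembles the membrane arm, by -0.12. On the higher side lay Ndufaf7, a methyltransferase, at 0.29, and Ndufaf2, a late factor, at 0.27. Ndufaf5, which hydroxylates Ndufs7, differed by 0.068 by its brightest probe and by -1.07 by a dim probe that was not above background in the SiO2 pool.

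**Figure D3:**
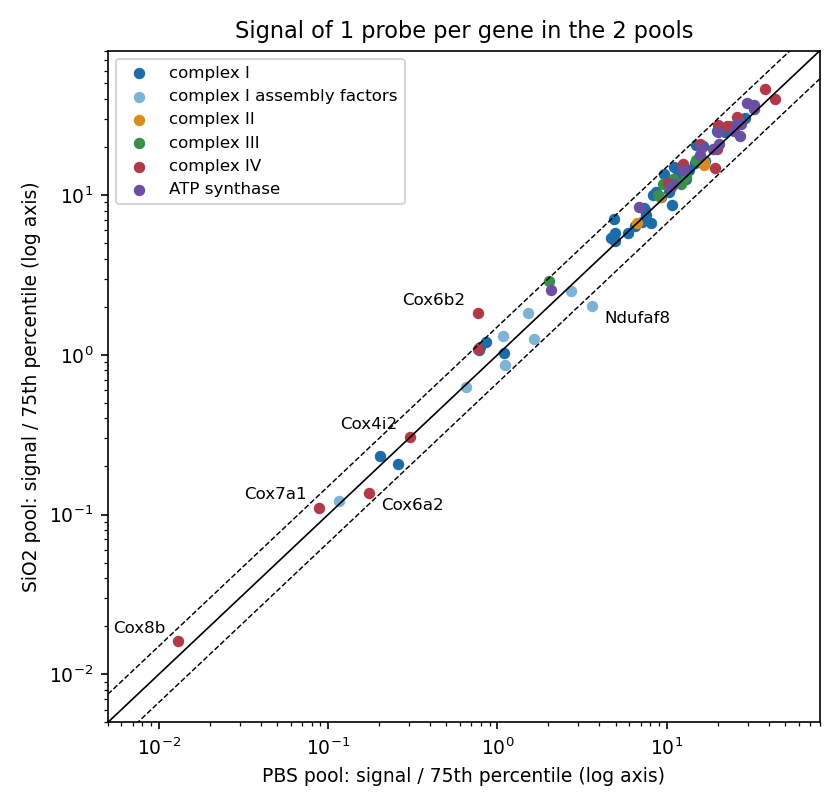
Signal of the brightest probe of each gene, divided by the array's 75th percentile, SiO2 pool on the vertical and PBS pool on the horizontal axis, both logarithmic; the solid line is equality and the dashed lines are 1.5-fold. The points follow the line from Cox8b, at 0.0162 in the SiO2 pool and 0.0129 in the PBS pool, to Cox6a1, at 45.9 in the SiO2 pool and 37.9 in the PBS pool, with Cox6b2 above and Ndufaf8 below the dashed lines.

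Complex II, which is also an enzyme of the tricarboxylic acid cycle, lay near the level of all genes under the default scaling. Its 4 genes had a median of -0.014. Sdha, the flavoprotein that oxidises succinate, had a relative signal of 6.66 in the SiO2 pool and 6.64 in the PBS pool (0.0035). Sdhb, the iron-sulfur subunit, had 16.2 in the SiO2 pool and 16.6 in the PBS pool (-0.032), and its other probe gave 0.21. Sdhc, a membrane anchor, had 15.3 in the SiO2 pool and 16.6 in the PBS pool (-0.12), whereas its dimmer probe gave 0.37. Sdhd, the other anchor, had 9.77 in the SiO2 pool and 9.16 in the PBS pool (0.093). With the mean over probes the median of the complex was 0.09. It was -0.031 under normexp, where all genes had 0.18. In the authors' values it was -0.15 over 2 genes, where all genes had -0.039. Under the scaling to B and T cell markers it was 0.37, where all genes had 0.41. Its sign thus depended on the probe and on the scaling.

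Complex III had 8 genes with a median of 0.19, 6 above 0 and 2 below, and none past 1.5-fold. Of all genes, 52.3% lay above 0, 16.0% were at least 1.5-fold higher and 12.3% at least 1.5-fold lower. Uqcrc1, a core protein on the matrix side, had a relative signal of 2.90 in the SiO2 pool and 2.01 in the PBS pool, or 1.45-fold higher. Uqcr11, a small subunit, had 11.8 in the SiO2 pool and 9.43 in the PBS pool (0.32). The other core protein, Uqcrc2, differed by 0.21 and the Rieske iron-sulfur protein Uqcrfs1 by 0.15. Uqcrh, the hinge protein that helps cytochrome c1 and cytochrome c to pair, differed by 0.20 and Uqcrq by 0.18. Uqcr10 differed by -0.0051 and Uqcrb, near the quinone site, by -0.037. All 3 Uqcrb probes lay below 0, the lowest at -0.48.

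Complex IV had the highest median of the complexes, 0.27, over 16 genes above background, with 11 above 0 and 5 below. Of all genes, 52.3% lay above 0. Cox6b2, the testis isoform of a subunit that links the dimer on the outer face, had a relative signal of 1.83 in the SiO2 pool and 0.767 in the PBS pool, or 2.38-fold higher. Its unscaled signals were 858 in the SiO2 pool and 514 in the PBS pool, and 96.0% of all genes had a smaller difference. Its value came from 1 probe and stayed between 1.16 and 1.63 on the log2 scale over the settings tried. Cox6b1, the ubiquitous isoform, had 1.09 in the SiO2 pool and 0.763 in the PBS pool (0.51). Erythroid markers were higher by 1.5-fold or more for all 11 genes above background in both pools, against 16.0% of all genes. Sptb was not above background in the PBS pool. The summed relative signal of the erythroid markers was 202 in the SiO2 pool and 61.4 in the PBS pool. Their median difference was 1.77 over those 11 genes. Neutrophil and proliferation markers were higher as well, with medians of 1.97 and 1.22, while the medians of B, T, NK and macrophage markers lay below 0. The part of any of these in the Cox6b2 value was not tested.

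Other ubiquitous complex IV subunits lay on both sides of 0. Cox8a had a relative signal of 27.6 in the SiO2 pool and 19.97 in the PBS pool (0.47), but its other probe gave 0.065. Cox4i1, the regulatory subunit that binds ATP, had 21.0 in the SiO2 pool and 15.8 in the PBS pool (0.41). Cox7a2 (0.32), Cox6a1 (0.28), Cox7c (0.26), Cox5b (0.25) and Cox7b (0.24) were close to each other. Cox5a, which binds the matrix side next to Cox4, had 14.8 in the SiO2 pool and 19.3 in the PBS pool (-0.38). Cox6c differed by -0.030 and Cox7a2l, which joins complexes III and IV in supercomplexes, by -0.13. Cox4i1 and Cox5a, which enter the complex early as partners, thus differed in opposite directions under the default scaling. Each was read from 1 probe. Under the scaling to B and T cell markers all 16 complex IV genes lay above 0.

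Apart from Cox6b2, the isoforms of restricted expression lay below the 75th percentile in both pools. Cox4i2, the lung and hypoxia isoform, had a relative signal of 0.3048 in the SiO2 pool and 0.3054 in the PBS pool (-0.0025). Cox7a1, a heart and muscle isoform, had 0.111 in the SiO2 pool and 0.0881 in the PBS pool (0.33). Cox6a2, also a muscle isoform, had 0.136 in the SiO2 pool and 0.173 in the PBS pool (-0.35). Cox8b had 0.0162 in the SiO2 pool and 0.0129 in the PBS pool (0.33), with the largest spot error of the members. Cox7b2 and Cox8c, testis isoforms, were not well above background in either pool. Of the 10 striated muscle markers above background in both pools, 2 passed 1.5-fold upward and 5 downward (16.0% and 12.3% of all genes). Their median was -0.54. Over the 13 above background in either pool the median was -0.19, and it was 0.27 under normexp, so the list had no settled direction. The summed relative signal of the 13 was 1.23 in the SiO2 pool and 2.33 in the PBS pool, and the muscle creatine kinase Ckm was at 0.0164 in the SiO2 pool and 0.0158 in the PBS pool. The part of muscle RNA in these values was not tested. Of the brown adipocyte markers, Ucp1, Cidea and Elovl3 were not above background, while Dio2, a deiodinase, had 0.14 in the SiO2 pool and 0.0751 in the PBS pool (0.89).

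Of the 17 ATP synthase genes, 16 lay above 0 (52.3% of all genes), with a median of 0.12 and a range of -0.23 to 0.34. None was past 1.5-fold by its brightest probe. Under quantile normalization 11 lay above 0 and 6 below, under normexp 13 and 4, and in the authors' values 10 and 5. Of all genes, 46.5%, 64.1% and 46.8% lay above 0 in these settings, in that order. In the catalytic F1 head, Atp5b, the beta subunit that makes ATP, had a relative signal of 36.5 in the SiO2 pool and 32.6 in the PBS pool (0.16). The alpha subunit Atp5a1 had 27.7 in the SiO2 pool and 27.4 in the PBS pool (0.016). In the rotor stalk, the gamma subunit Atp5c1 differed by 0.093, delta, Atp5d, by 0.30 and epsilon, Atp5e, by 0.024. The peripheral stalk, which holds the head still, had the gene with the highest value, Atp5h, at 37.5 in the SiO2 pool and 29.6 in the PBS pool (0.34, and 0.052 by its other probe). Its partners Atp5pb, Atp5o and Atp5j differed by 0.30, 0.10 and 0.046.

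The c ring that turns with the proton flow is encoded by 3 genes whose mature proteins are the same. Atp5g1 had a relative signal of 17.8 in the SiO2 pool and 15.7 in the PBS pool (0.18). Atp5g3 had 27.9 in the SiO2 pool and 25.8 in the PBS pool (0.12). Atp5g2 had 23.3 in the SiO2 pool and 27.2 in the PBS pool (-0.23), with -0.15 by its other probe, and was the only ATP synthase gene below 0 under the default scaling. Among the small membrane subunits, which shape the dimer and the cristae, Atp5j2 differed by 0.32, Atp5md by 0.30 and Atp5mpl by 0.21. The dimmer Atp5j2 probe gave 0.61, which is past 1.5-fold. Atp5l and Atp5k differed by 0.071 and 0.0090, and the 5 Atp5l probes lay between -0.082 and 0.071.

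Several probes of a gene served as a check within the arrays. The 24 members with at least 2 probes above background had a median range of 0.20 between their probes, and 14 had a range under 0.25. For all 4325 genes with several probes the median range was 0.32, and 1795 of them had a range under 0.25. In 7 of the 24 the probes had opposite signs, and so they had in 1392 of all 4325 genes. The widest ranges were those of Ndufaf5 (1.14, by the probe not above background in the SiO2 pool), Ndufa5 (0.54), Ndufb11 (0.52) and Sdhc (0.49). By a dimmer probe Ndufa5 lay at 0.62, Ndufb11 at 0.63 and Atp5j2 at 0.61, each past 1.5-fold upward. The reference table lists 19 pseudogenes with these prefixes, none with a named probe, and probe sequences were not at hand, so signal from such copies was not tested.

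**Figure D4:**
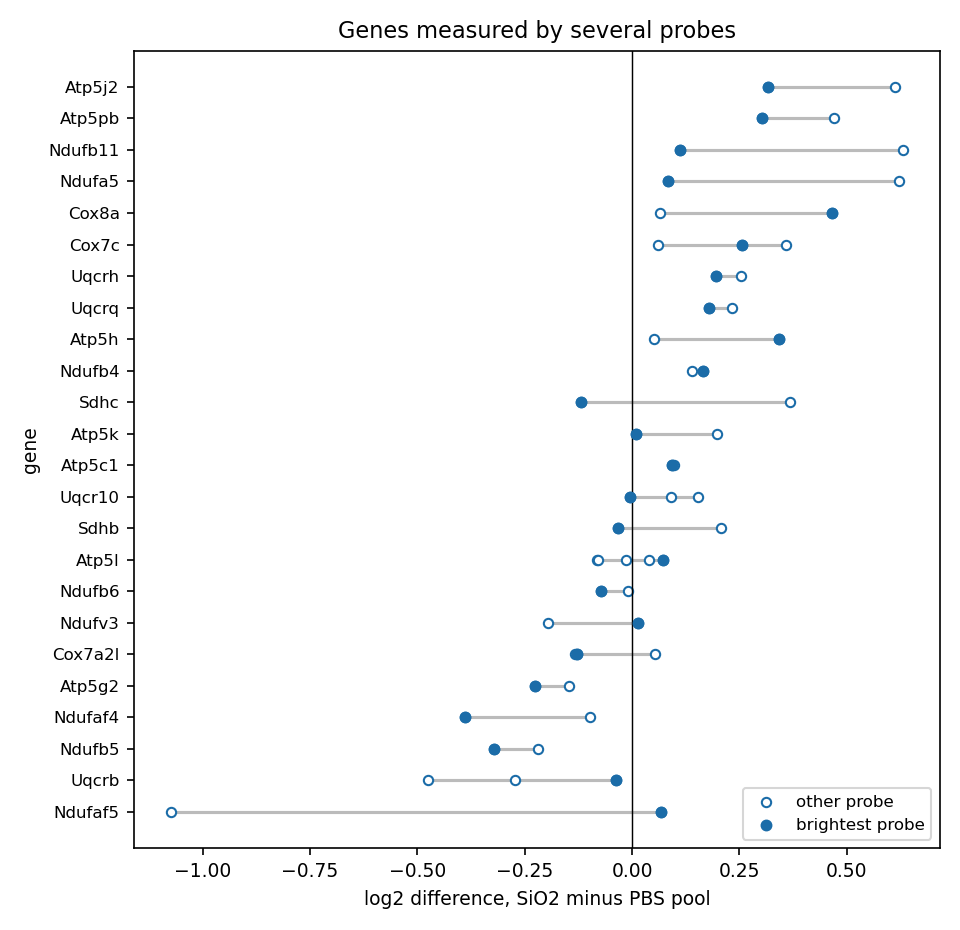
Log2 difference (SiO2 minus PBS pool) of every probe above background for the 24 genes with several probes, 1 gene per line; filled points are the brightest probe, used for the gene, and open points the others. Most probes of a gene lie close together, while a dim Ndufaf5 probe lies at -1.07 and the brightest at 0.068.

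Neighbouring steps of energy metabolism were read from fixed gene lists, and each list was spread more widely than the chain, with interquartile ranges of 0.33 to 0.76 against 0.30. Mitochondrial fatty acid oxidation had a median of 0.34 over 16 genes, and 5 of them passed 1.5-fold upward and 0 downward, against 16.0% and 12.3% of all genes. Cpt1a, which brings fatty acids into mitochondria, had a relative signal of 2.73 in the SiO2 pool and 1.39 in the PBS pool, or 1.96-fold higher. Hadha, a trifunctional enzyme subunit, was 1.84-fold higher, while its partner Hadhb differed by 0.20 on the log2 scale. The beta-oxidation enzymes Hadh, Acaa2 and Acadl were 1.66-fold, 1.64-fold and 1.55-fold higher, though Acadl lay at 0.57 on the log2 scale under normexp, which leaves 4 genes past 1.5-fold, and Acadm (0.27) and Etfdh (0.41) lay near the median of the list.

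The tricarboxylic acid cycle had a median of 0.19 over 14 genes, but 0.035 in the authors' values, which hold 8 of them. Dlst, a subunit of 2-oxoglutarate dehydrogenase, was 1.71-fold higher and the fumarase Fh1 1.51-fold lower, while citrate synthase, Cs, differed by 0.14 and Idh3a by 0.25. Genes of electron carriers and coenzyme Q synthesis had a median of 0.15 over 14 genes, and 0.031 over the 11 in the authors' values. Coq9, a lipid-binding protein of that synthesis, had a relative signal of 1.12 in the SiO2 pool and 0.574 in the PBS pool, or 1.94-fold higher, whereas cytochrome c, Cycs, differed by -0.21. Near the median of that list were Coq4 (0.17) and Coq5 (0.13). Of 35 other assembly factors, 2 passed 1.5-fold upward and 0 downward, against 16.0% and 12.3% of all genes. Their median was -0.15, and -0.064 under normexp. Timmdc1, a complex I factor, was 1.89-fold higher and the copper chaperone Cox11 1.53-fold higher, while Foxred1 and Uqcc1 lay at -0.16 and -0.15. Carriers of nucleotides, phosphate and protons had a median of -0.061 over 6 genes, with no settled sign, since it was 0.080 under normexp and -0.33 over the 4 genes in the authors' values. Slc25a31, the testis nucleotide carrier, was lower by 0.75 with a SiO2 signal that was not above background, and under normexp it lay at 0.26. The phosphate carrier Slc25a3 (-0.045) and the main nucleotide carrier Slc25a5 (-0.078) lay near 0.

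Regulators of mitochondrial content had a median of -0.18 over 16 genes. Of these, 1 was at least 1.5-fold higher and 3 lower, against 16.0% and 12.3% of all genes. Under normexp the median was -0.028, with 0 higher and 1 lower, against 10.8% and 6.74% of all genes. It was -0.0080 in the authors' values (14 genes). Under the scaling to B and T cell markers it was 0.20, with 4 higher and 0 lower, against 37.2% and 4.01% of all genes. The coactivator Ppargc1b had a relative signal of 0.122 in the SiO2 pool and 0.229 in the PBS pool, or 1.87-fold lower, and lay at -0.41 on the log2 scale under normexp. Ppargc1a, its paralog, had 0.0458 in the SiO2 pool and 0.0806 in the PBS pool (-0.82), but -0.081 under normexp. Esrra, a receptor for which both are coactivators, had 4.43 in the SiO2 pool and 6.89 in the PBS pool (-0.64). Nrf1 (0.56) and Gabpa (0.14), whose motifs were searched above, and the mitochondrial DNA factor Tfam (0.099) were not past 1.5-fold. Polg, the mitochondrial DNA polymerase, was just past it at 0.59, but at 0.47 under normexp and 0.34 with the mean over probes, and Ssbp1 (-0.28) and Tefm (-0.074) lay near the list median.

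Glycolysis, the cytosolic source of pyruvate, had a median of -0.031 over 19 genes. Of these, 1 was at least 1.5-fold higher and 3 lower, against 16.0% and 12.3% of all genes. Under the scaling to B and T cell markers 6 glycolysis genes were higher and 0 lower, against 37.2% and 4.01% of all genes. The isoforms of phosphofructokinase split: Pfkm had a relative signal of 3.22 in the SiO2 pool and 1.16 in the PBS pool, or 2.78-fold higher, and Pfkp had 0.455 in the SiO2 pool and 0.737 in the PBS pool, or 1.62-fold lower. By the mean over probes Pfkp lay at -0.12. The hexokinases Hk2 and Hk3 were 1.66-fold and 1.64-fold lower. Under normexp Hk3 lay at -0.52 and Pfkp at -0.56, short of 1.5-fold, so that 1 gene was lower there. Eno1 (-0.031) and Pgam1 (0.0048) lay at the median. None of the 13 mitochondrially encoded subunits had a named probe, so they were not analysed here.

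**Figure D5:**
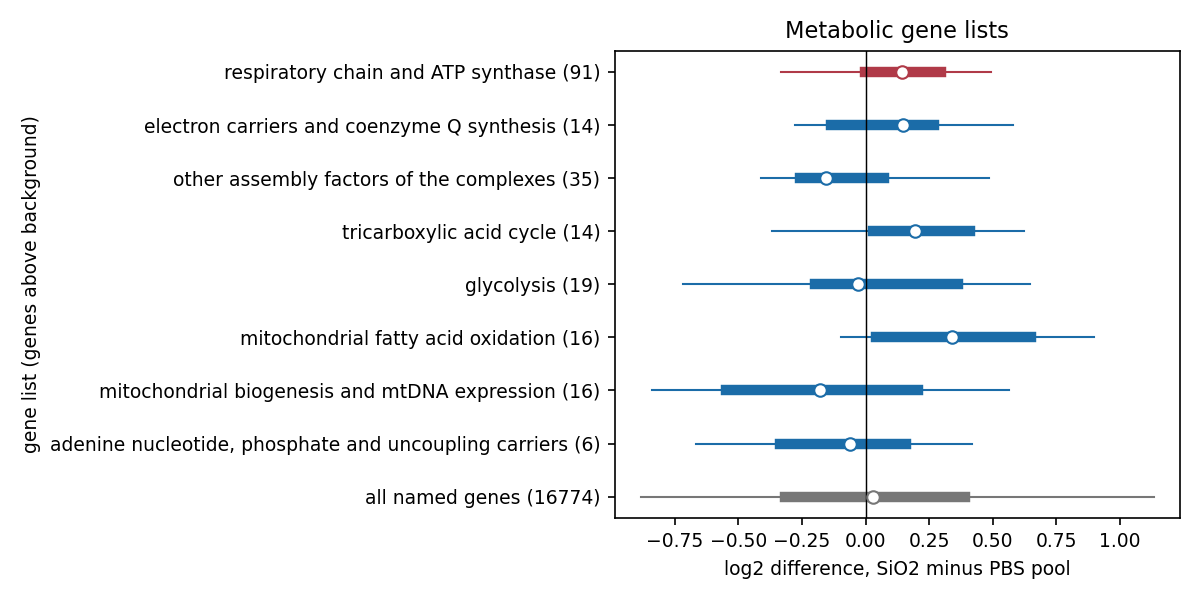
Log2 difference (SiO2 minus PBS pool) of the members, of 7 metabolic gene lists and of all named genes; points are medians, thick bars interquartile ranges, thin bars the 5th to 95th percentile, and the number of genes above background stands in parentheses. The respiratory chain has a median of 0.14 and the narrowest interquartile range (0.30), and fatty acid oxidation has a median of 0.34.

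Markers of several cell types were displaced further than the chain. Of all genes, 16.0% were at least 1.5-fold higher and 12.3% at least 1.5-fold lower. Proliferation markers were at least 1.5-fold higher in 11 of 12 genes and neutrophil markers in 9 of 10, with medians of 1.22 and 1.97. B cell markers had a median of -0.54 and T cell markers one of -0.27, with 3 of 10 and 1 of 10 at least 1.5-fold lower. Under the scaling that centres these same markers on 0, the medians were -0.16 for B cells and 0.11 for T cells, with 0 genes lower in each list. NK cell markers had a median of -1.89 and macrophage markers one of -0.94, with 5 of 6 and 6 of 9 lower. Of the 4 white adipocyte markers above background in both pools, 2 were higher and 1 lower, with a median of 0.72, and Adipoq did not clear background in the PBS pool. How each cell type contributed to the members' values was not tested.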

How the data were processed

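The arrays held Cy3-labelled cRNA of 2 pools, 1 per group. Spot brightness was deposited as linear intensity values. Feature Extraction from Agilent produced them, in version 11.0.1.1 per the file headers but 9.1 per the submitters' processing notes. The authors also deposited log2 values, with a median of 5.68 in both columns, whose normalization is not stated in these sources. Their differences were close to those under quantile normalization for genes such as Ndufaf8 (-0.86 in both) and Cox6b2 (1.24 in both). Ssbp1 was an exception (0.014 in the authors' values and -0.30 under quantile normalization). Agreement between these settings is thus not independent support.

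Of 43020 spots that were not controls, 148 on the SiO2 array and 145 on the PBS array carried outlier flags and were left out. The share of spots above background was 74.9% for the SiO2 array and 75.5% for the PBS array. The processed signal was divided by its 75th percentile, 469 for the SiO2 array and 670 for the PBS array, and log2 was taken. Spots that repeat a probe were averaged. Probe names came from the accession, without version, through the RefSeq table of GRCm38.p6: 27217 of 39398 probes (69.1%) had 1 symbol. A gene was read from its brightest probe among those clearing background on 1 or both arrays, and a dim side was raised to the lowest level above background on that array. The brightest probe of each of the 91 members was well above background on both arrays, so none was raised.

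Differences were counted at 1.5-fold and 2-fold, with no test. Members were named or counted in a range, except 1 that is not reported here; of the lists, the genes past 1.5-fold and the 2 nearest the median were named among the metabolic ones. Cycs, Hadhb, Nrf1, Gabpa and Tfam, and the markers Ckm, Dio2, Sptb and Adipoq, were chosen after their values were seen. The members and lists were chosen with earlier results of these data known. The code was tested on simulated data. Alternatives were normexp (limma 3.58.1, R 4.3.3, offset 50), quantile normalization, the authors' values, other filters, the mean over probes, and a scaling to B and T cell markers. Python 3.11.15 was used otherwise.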

Additional observations from a re-analysis of the deposited data

How the results depend on the processing

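The counts of 1 member at least 1.5-fold higher (Cox6b2) and 1 lower (Ndufaf8) were the same under normexp, quantile normalization, the authors' deposited values (68 members), both filters and the mean over probes. Under the scaling to B and T cell markers, which added 0.38, the counts were 35 and 0, and the medians became 0.53 for all members, 0.51 for complex I, 0.37 for complex II, 0.57 for complex III, 0.65 for complex IV and 0.50 for the ATP synthase. Under quantile normalization the medians were 0.040 for all members, 0.050 for complex I, -0.0853 for complex II, 0.10 for complex III, 0.15 for complex IV and 0.015 for the ATP synthase. In the authors' deposited values they were 0.050 for all members, 0.040 for complex I, -0.15 for complex II, 0.0903 for complex III, 0.15 for complex IV and 0.0356 for the ATP synthase. Complex IV had 0.18 under normexp, and complex II had 0.0901 with the mean over probes. Of the genes named from the lists, Esrra, Fh1, Hk2, Hk3, Pfkp, Ppargc1a, Ppargc1b and Slc25a31 were no longer 1.5-fold lower under the scaling to B and T cell markers. Slc25a31, lower by default, lay at 0.26 under normexp; the cause was not tested. Requiring signal above background on both arrays, or no filter, moved no median of a complex by as much as the spot spread of 0.065. Normexp used the median spot signal, a choice made after seeing the files, and naming by the array's own gene names was not run, as the scanner files hold no such column. No paired analysis was possible because each group is 1 array and no result comes from a test. The number of arrays limits the precision: animal and hybridisation error are not measured, and dim isoforms such as Cox8b lie near background.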

Other observations

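Members read from probes whose names begin with A_51 (31 genes) had a median difference of 0.24, and those read from probes that begin with A_55 (42 genes) one of 0.080. Over all named genes the medians of these sets of probes were 0.071 (4903 genes) and -0.0056 (8332 genes). The gap, A_51 minus A_55, was 0.16 among the members and 0.076 over all genes. For A_52 the medians were 0.20 for the members (13 genes) and 0.075 over all genes. For A_66 they were -0.037 for the members (5 genes) and 0.050 over all genes. The part of the probe set in the order of the members was not tested.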
